A study of Mus musculus with 12 samples.

Results

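The genes *Ntrk2*, *Ntrk3*, *Bdnf*, *Ntf3*, *S100b*, *Npr1*, *Npr2* and *Th* link adipose tissue to its nerve supply through neurotrophin signalling, natriuretic peptide signalling and noradrenaline synthesis. They are 8 of the 20660 named genes on the arrays, and their 13 probes, out of 55681, were found by matching each probe's RefSeq accession to its gene symbol. All 13 probes were bright enough to be tested. *Ntrk3* was chosen by its log2 intensity, which was higher in *Lr11*-/- subcutaneous white adipose tissue (scWAT) than in the wild-type tissue on these same arrays, and *S100b* belongs, like *Ntrk3*, to the top genes that the study drew from them by their pattern over all 4 groups. The values of these 2 genes are therefore given as a description without a test, in BAT as in scWAT.

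The mice were C57Bl6/J males of 12 weeks on a high-fat diet (HFD) with 60% of calories as fat. Knockout mice lacked LR11, a sorting receptor encoded by *Sorl1*, in every tissue (*Lr11*-/-), and wild-type (WT) littermates were the controls. The 4 groups were WT scWAT, *Lr11*-/- scWAT, WT brown adipose tissue (BAT) and *Lr11*-/- BAT, with 3 one-colour Agilent arrays each. All mice received HFD. One label states 4 weeks of HFD and another a start at weaning, so its length is unsettled, and no mice on another diet or of the other sex were on the arrays. Replicate 1 of each group came from a first array series and replicates 2 and 3 from a second. In the first series the scWAT and the BAT arrays were on different slides with different scans, so depot and slide cannot be told apart there. The arrays of the second series shared a single slide. The replicate numbers follow the order of deposition and pair no arrays across groups.

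Neurotrophins are secreted growth factors that keep sympathetic and sensory neurons alive and guide the growth of their axons. BDNF acts through the receptor tyrosine kinase TrkB, encoded by *Ntrk2*, and neurotrophin 3 (*Ntf3*) acts mainly through TrkC, encoded by *Ntrk3*. LR11 is known in neurons as a sorting partner of TrkB. S100b is a calcium-binding protein made by Schwann cells and by thermogenic adipocytes, and in the secreted form it stimulates the growth of neurites. *Npr1* and *Npr2* encode receptor guanylyl cyclases, the former for the atrial and B-type natriuretic peptides and the latter for the C-type peptide. Both make cGMP, and in adipocytes natriuretic peptides drive lipolysis and thermogenic gene expression. *Th* encodes tyrosine hydroxylase, the rate-limiting enzyme of catecholamine synthesis. The cell bodies of the sympathetic neurons that make noradrenaline lie in ganglia outside the fat depots, so that axons carry most of the protein into the tissue and little of the mRNA.

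The RefSeq promoter table of the mouse assembly GRCm38.p6 held 7 of the 8 genes, *Ntrk3* being the other. The 250 bases before the start are printed for *S100b*, one of the pair of genes with the widest differences in scWAT, for *Bdnf*, the gene with a tested difference between depots, and for *Th*, whose promoter holds the cAMP response element (CRE). Sequences run 5′ to 3′ on the strand of the gene, and capitals mark the CRE (TGACGTCA), its half-site (TGACG), the nuclear receptor half-site (AGGTCA) and a SOX motif (ACAAAG), searched on both strands.
*S100b*, chr10:76253586-76253835, plus strand: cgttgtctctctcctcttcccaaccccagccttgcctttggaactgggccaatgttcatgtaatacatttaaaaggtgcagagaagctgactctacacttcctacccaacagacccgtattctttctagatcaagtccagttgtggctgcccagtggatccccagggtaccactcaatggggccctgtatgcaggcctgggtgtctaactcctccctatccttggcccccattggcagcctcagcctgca
*Bdnf*, chr2:109692186-109692435, plus strand, one of 7 starts in the table: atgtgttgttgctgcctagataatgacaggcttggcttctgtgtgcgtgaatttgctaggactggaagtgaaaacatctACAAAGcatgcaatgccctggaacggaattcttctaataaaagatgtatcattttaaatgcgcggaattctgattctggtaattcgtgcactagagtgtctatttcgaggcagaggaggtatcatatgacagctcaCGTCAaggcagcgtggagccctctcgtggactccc
*Th*, chr7:142899996-142900245, minus strand: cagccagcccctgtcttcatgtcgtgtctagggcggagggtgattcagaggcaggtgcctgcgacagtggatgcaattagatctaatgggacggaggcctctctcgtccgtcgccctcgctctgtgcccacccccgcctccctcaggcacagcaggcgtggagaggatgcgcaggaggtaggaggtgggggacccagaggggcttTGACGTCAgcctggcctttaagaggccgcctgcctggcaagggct

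In *Th* the full CRE lay 45 to 38 bases before the start, and 1.55% of the 32851 promoters of this length held one. It contains the half-site on both strands. In the *Bdnf* stretch a half-site on the reverse strand lay 35 to 31 bases before the start and a SOX motif 171 to 166 bases before it, which 17.8% and 16.5% of promoters held. Of the 7 *Bdnf* starts the printed one alone held either motif, and another held the nuclear receptor half-site. The shares are per promoter and do not measure how often one of several starts of a gene holds a motif. The *S100b* stretch held none of the 4 motifs, the nuclear receptor half-site (in 14% of promoters) included. Such matches describe the letters and do not show a bound site.

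The values below are log2 intensities relative to the 75th percentile of the array, so that a value of 0 equals that percentile. They compare the same probe between groups and not one gene with another. A spot counts as dim where the scanner software did not call it well above background. Differences were tested with limma over 32121 probes, and adjusted p values are by Benjamini-Hochberg over all of them. As nothing in the labels says that the 3 arrays of a group came from separate animals, p values measure the spread between these samples. That spread is 1 estimate per probe pooled over all 4 groups, and the groups were unlike in it. For *Ntrk2* the SD was 1.45 in WT scWAT and 0.17 in *Lr11*-/- BAT. Between the genotypes in scWAT 1692 probes were called with all 12 arrays in the fit, and 0 with only the arrays of the 2 groups compared. The targeted gene *Sorl1* was between 0.91 and 1.15 in WT and between −3.57 and −2.87 in *Lr11*-/- scWAT, and between 0.11 and 1.21 in WT and between −3.93 and −2.45 in *Lr11*-/- BAT, so that every knockout array fell below every WT array of its tissue. WT scWAT replicate 2 stood apart from the other WT scWAT arrays. The mean over the 7 adipocyte markers was 3.71 there, against 7.46 and 5.64 on replicates 1 and 3, and the mean over the 8 genes of interest was −2.20, against 0.19 and 0.32. The mean over 12 skeletal muscle markers was 7.99 on WT scWAT replicate 3 and 7.71 on *Lr11*-/- scWAT replicate 1, against −4.57 to −3.62 on the other 4 scWAT arrays. In BAT it was 5.90 and 5.29 on WT replicates 1 and 3 and 4.76 on *Lr11*-/- replicate 1, against −4.58 to −4.09 on the other 3. The mean over 8 epithelium markers was 1.10 on *Lr11*-/- scWAT replicate 1 and −2.33 on WT scWAT replicate 3, and between −4.67 and −3.56 on the other 10 arrays. In bulk tissue, fewer cells of a type and less RNA per cell cannot be told apart.

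Among the ligands, *Bdnf* was the member with a difference past the threshold. It was lower in BAT than in scWAT of WT mice. Its log2 intensity was −2.02, −2.04 and −1.16 on WT scWAT replicates 1, 2 and 3, and −3.19, −2.87 and −3.13 on the WT BAT arrays. Every BAT array was below every scWAT array, and the mean difference was −1.32 (SE 0.27, 95% confidence interval −1.93 to −0.72, adjusted p = 0.0089 in limma), which is 2.50-fold lower. In *Lr11*-/- scWAT the values were −2.56, −2.61 and −2.40, between those of WT scWAT and most of the BAT arrays. All 3 were below all 3 WT scWAT arrays, yet the difference of −0.78 (SE 0.27, 95% confidence interval −1.39 to −0.18) did not pass the threshold (adjusted p = 0.10 in limma). The *Lr11*-/- BAT arrays were at −2.55, −3.13 and −3.14, and the genotypes overlapped there, with a difference of 0.12 (95% confidence interval −0.48 to 0.73). The order of the group means was therefore WT scWAT, *Lr11*-/- scWAT, *Lr11*-/- BAT and WT BAT, and of the neighbours in that order none differed past the threshold.

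*Ntf3* varied mostly within WT scWAT. Its values there were 0.07 and −1.26 on replicates 1 and 3, and −6.52 on replicate 2, where the spot was dim. They were −0.98, −0.83 and −0.83 in *Lr11*-/- scWAT, −0.89, 0.20 and 0.62 in WT BAT and −0.75, −0.95 and −0.55 in *Lr11*-/- BAT. The *Lr11*-/- scWAT arrays lay between the WT scWAT arrays, and the difference between the genotypes in scWAT was 1.69 (SE 1.28, 95% confidence interval −1.14 to 4.51, adjusted p = 0.42 in limma). Without WT scWAT replicate 2 it was −0.29, the other way. BAT of WT mice was higher than scWAT by 2.54 (SE 1.28, adjusted p = 0.16 in limma), a difference that fell to 0.57 without the same array.

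**Figure D1:**
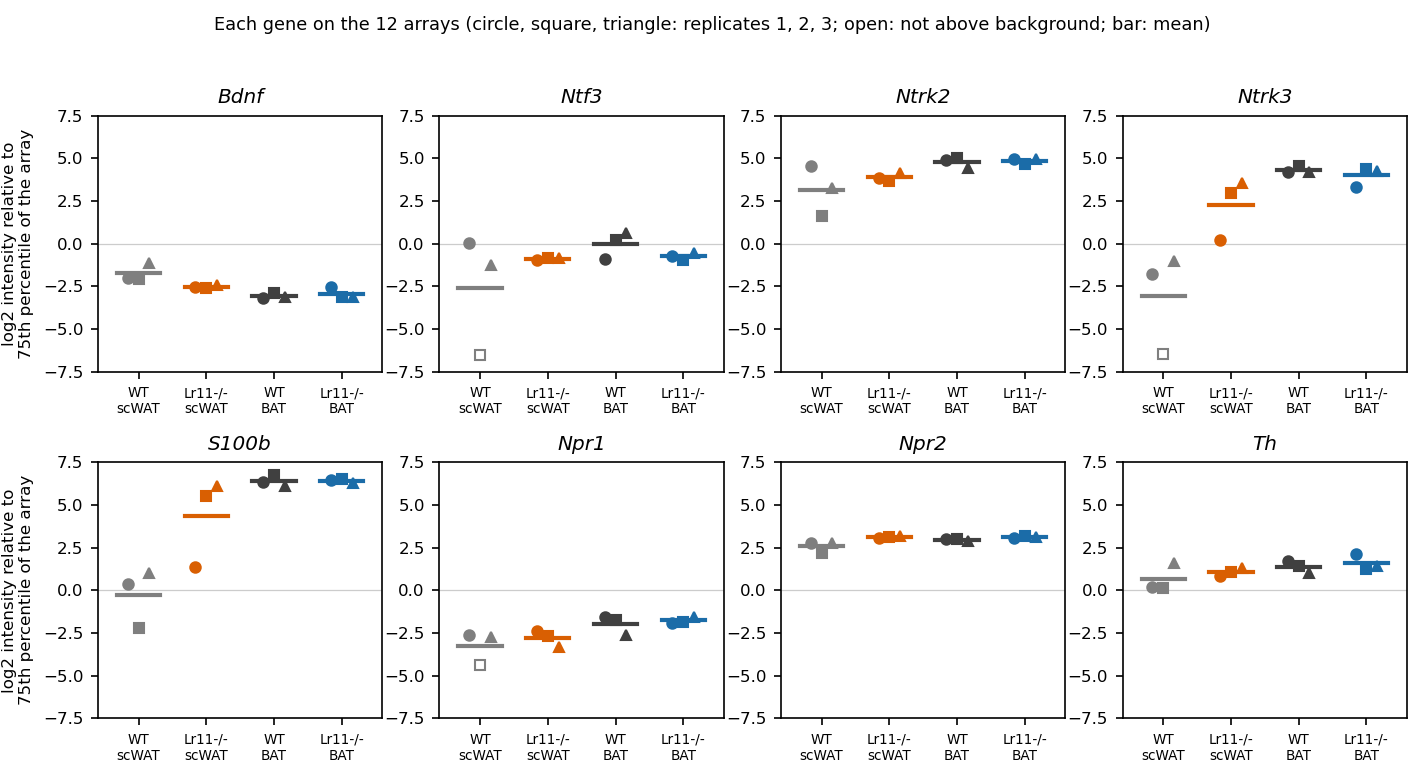
The brightest probe of each of the 8 genes on the 12 arrays, as log2 intensity relative to the 75th percentile of the array (y axis) by group (x axis). Circles, squares and triangles are replicates 1, 2 and 3, open symbols are spots not well above background and bars are means of 3 arrays. *Ntrk3* and *S100b* span several log2 units between WT scWAT and BAT with *Lr11*-/- scWAT between them, while *Npr2* stays between 2.20 and 3.17.

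The receptor gene *Ntrk3* had the widest span of the 8. Its brightest probe, A_55_P2006808, was at −1.77, −6.44 and −0.99 on WT scWAT replicates 1 to 3, the second of them dim. It was at 0.19, 2.98 and 3.53 in *Lr11*-/- scWAT, 4.19, 4.58 and 4.19 in WT BAT, and 3.35, 4.39 and 4.28 in *Lr11*-/- BAT. Every *Lr11*-/- scWAT array was above every WT scWAT array and below every WT BAT array. WT scWAT averaged −3.07 ± 2.95 (SD, *n*=3) and the knockout tissue 2.24 ± 1.79 (SD, *n*=3), a difference of 5.31. With the dim spot set to the weakest signal that its array could tell from background, *Lr11*-/- scWAT was at least 25.1-fold higher, 2 of the 3 WT arrays having measured the probe.

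The other *Ntrk3* probes gave the same order of the 4 group means. Probe A_52_P500274, designed like the first to the accession NM_182809, ran from −5.51 (dim) to −1.35 in WT scWAT and from 0.14 to 3.32 in *Lr11*-/- scWAT. The probes to NM_008746, A_66_P118329 and A_55_P2056533, ran from −3.93 to −1.57 and from −6.59 (dim) to −4.18 in WT scWAT, and from −1.05 to 2.89 and from −2.89 to 0.64 in *Lr11*-/- scWAT. Over the 4 probes the difference between the genotypes was 3.95 to 5.31 in scWAT. In every case *Lr11*-/- scWAT replicate 1 was the lowest of its group and WT scWAT replicate 2 the lowest of all 12 arrays. The difference was 1.97 between the single pair of arrays of the first series and 6.98 in the second series, and 3.62 without WT scWAT replicate 2.

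In BAT the genotypes overlapped. WT BAT averaged 4.32 ± 0.23 (SD, *n*=3) and *Lr11*-/- BAT 4.01 ± 0.57 (SD, *n*=3), a difference of −0.31. The other 3 probes gave differences of −0.37 to −0.05. Within WT mice, BAT exceeded scWAT by 7.39 (at least 106-fold, with 2 of 3 scWAT arrays measured), and within *Lr11*-/- mice by 1.77.

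*Ntrk2* moved far less. Its brightest probe was at 4.53, 1.63 and 3.27 in WT scWAT and at 3.87, 3.66 and 4.17 in *Lr11*-/- scWAT, so that WT replicates 1 and 2 lay on either side of the knockout arrays. It was at 4.92, 5.02 and 4.42 in WT BAT and at 4.94, 4.66 and 4.98 in *Lr11*-/- BAT. The difference between the genotypes was 0.75 (SE 0.56, 95% confidence interval −0.49 to 1.99, adjusted p = 0.41 in limma) in scWAT and 0.07 (SE 0.56, 95% confidence interval −1.16 to 1.31) in BAT. Without WT scWAT replicate 2 the scWAT value was −0.0017. BAT was higher than scWAT in WT mice by 1.64 (SE 0.56, adjusted p = 0.055 in limma), and by 1.82 and 2.06 on the 2 other probes (adjusted p = 0.052 and 0.089). The depot difference passed the threshold with the array series as a block (adjusted p = 0.048) and in the second series alone (2.27, adjusted p = 0.031), and it was 0.89 without WT scWAT replicate 2.

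**Figure D2:**
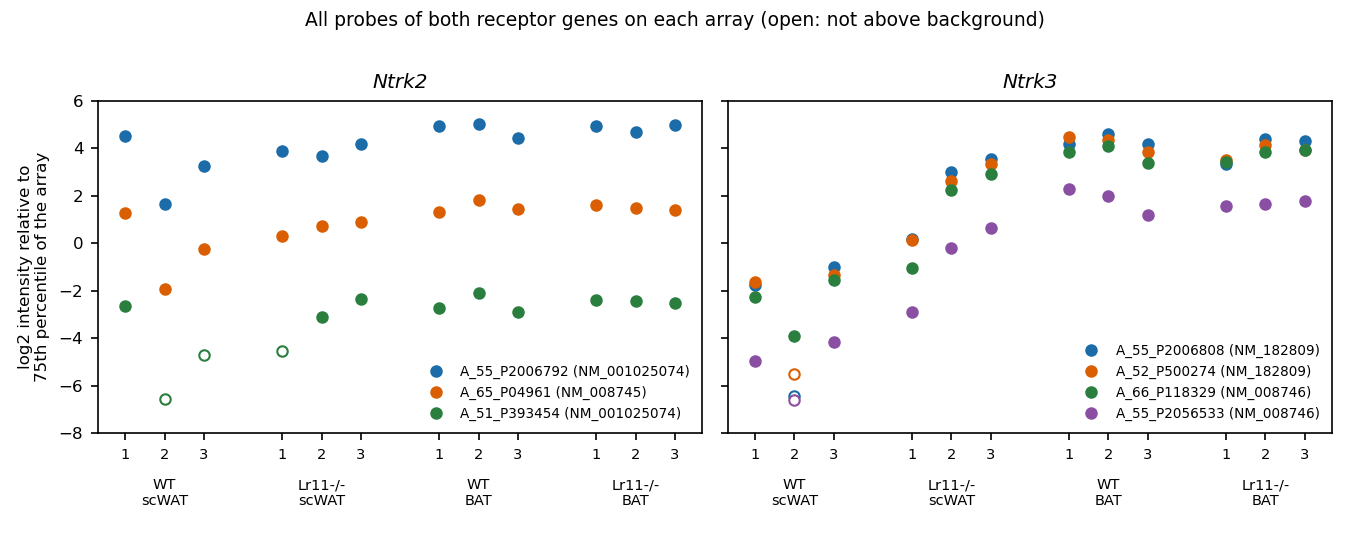
All 3 *Ntrk2* probes and all 4 *Ntrk3* probes on each array, as log2 intensity relative to the 75th percentile of the array (y axis), with the replicates 1 to 3 of each group along the x axis and the RefSeq accession of each probe in the key. Open points are not well above background. The 4 *Ntrk3* probes are lowest on WT scWAT replicate 2 and lower on *Lr11*-/- scWAT replicate 1 than on replicates 2 and 3.

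*S100b* followed the same groups as *Ntrk3*. Its probe was at 0.36, −2.20 and 1.03 in WT scWAT and at 1.40, 5.53 and 6.12 in *Lr11*-/- scWAT. The BAT arrays were at 6.34, 6.79 and 6.11 in WT and at 6.45, 6.54 and 6.28 in *Lr11*-/-. All spots were well above background. The knockout scWAT arrays were all above the WT ones, but replicate 1 exceeded the highest WT array by less than the WT arrays differed among themselves. The means of −0.27 ± 1.71 (SD, *n*=3) and 4.35 ± 2.57 (SD, *n*=3) differed by 4.62, or 24.5-fold, with 1.04 in the first array series and 6.40 in the second. In BAT the difference between the genotypes was 0.01, and its sign changed with the scaling, being −0.09 after quantile normalization.

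The thermogenic marker list, which includes *Ucp1*, the uncoupling protein of brown and beige adipocytes, moved with *Ntrk3* and *S100b*. Between 6 and 9 of its 10 genes were well above background on the WT scWAT arrays, where its mean log2 intensity spanned −3.14 to 2.22, and *Ucp1* itself was dim on replicate 2. The value of 2.22 was on WT scWAT replicate 3, where the muscle markers stood at 7.99, and the part of muscle in it was not tested. The mean spanned 3.09 to 6.86 in *Lr11*-/- scWAT, 5.54 to 5.96 in WT BAT and 6.28 to 6.45 in *Lr11*-/- BAT, with 9 or 10 genes well above background. On *Lr11*-/- scWAT replicate 1, where *Ntrk3* and *S100b* were lowest in their group and the muscle and epithelium markers highest, it was 3.09. Of the 10 genes 6 were higher in *Lr11*-/- scWAT past the threshold, and the median difference was 5.93. All of the 10 but *Dio2* are among the top genes that the study drew from these same arrays by this difference. The count therefore follows from that choice, and it is a description that cannot be set against the share of all probes. The part of thermogenic adipocytes in the *Ntrk3* and *S100b* values was not tested. The 7 adipocyte markers were well above background on all arrays, with a mean between 3.71 and 7.46 in WT scWAT and between 6.04 and 7.11 in *Lr11*-/- scWAT.

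**Figure D3:**
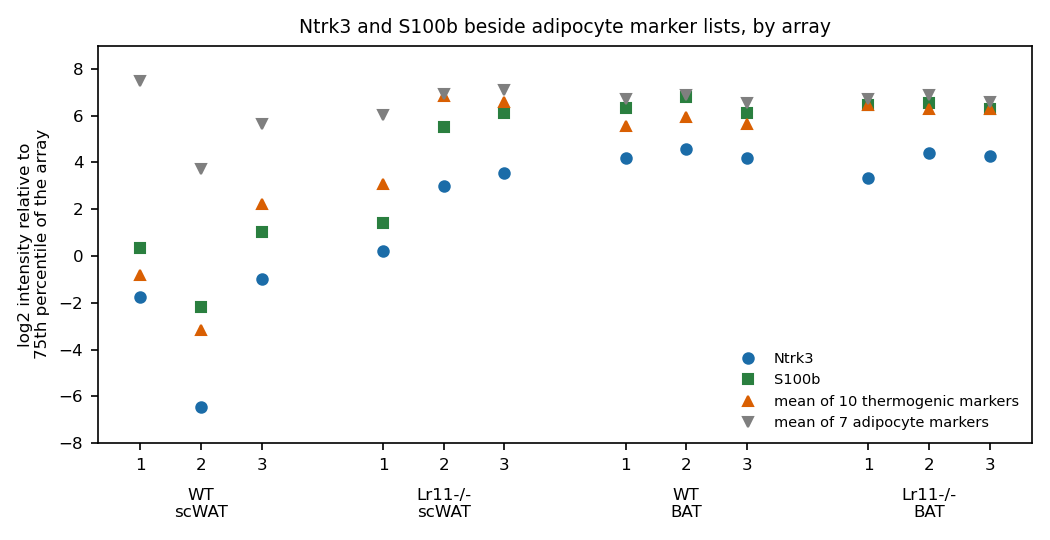
*Ntrk3* (circles) and *S100b* (squares) on each array beside the mean log2 intensity of 10 thermogenic markers (upward triangles) and of 7 adipocyte markers (downward triangles), all relative to the 75th percentile of the array (y axis). The replicates 1 to 3 of each group run along the x axis. *Ntrk3*, *S100b* and the thermogenic mean are lowest on WT scWAT replicate 2 and lower on *Lr11*-/- scWAT replicate 1 than on the other knockout scWAT arrays.

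Schwann cells, which also make S100b, were followed by 21 marker genes on the arrays, of which 17 were tested. Only *Gfra3*, a receptor for the neurotrophic ligand artemin, rose in *Lr11*-/- scWAT (1.72, SE 0.44, adjusted p = 0.049 in limma), to between −1.25 and 0.42 from between −2.51 and −1.46. Over all probes 3.40% were called higher there and 1.87% lower. The median difference of the 17 genes was −0.09. *Sox10*, the transcription factor that defines the lineage, was at −1.20, −1.96 and −0.37 in WT scWAT and at 0.34, −0.96 and −0.64 in *Lr11*-/- scWAT (difference 0.76). Within *Lr11*-/- scWAT it was highest on replicate 1, the array of that group on which *S100b* was lowest and on which the muscle and epithelium markers stood at 7.71 and 1.10. Their part in the *Sox10* and *S100b* values was not tested. *Fabp7*, a fatty acid binding protein of immature glia, differed by −3.19 and did not pass the threshold (adjusted p = 0.076 in limma). It was at −3.04, 1.15 and −2.94 in WT scWAT, where replicate 2 stood apart, and at −6.12 (dim), −4.45 (dim) and −3.82 in *Lr11*-/- scWAT. *Fabp7* was bright enough to be tested only through WT scWAT, where it was high, so its p value is no independent support.

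The genes whose pattern was most like that of *Ntrk3* were *Pank1*, *Ppara*, *S100b*, *Mpzl2* and *Cox7a1*. Like *Ntrk3*, all of them are among the top genes that the study drew from these same arrays by their pattern over the 4 groups. Their likeness to *Ntrk3*, and that of *Ppara* and *Pank1* to *S100b*, therefore follows in part from that choice. The measure was the root mean square difference between gene-centred log2 values over the 12 arrays. It was 0.53, 0.62, 0.71, 0.92 and 0.95 for the genes most like *Ntrk3*, in the order named, among 14709 named genes. *Pank1* encodes a kinase of coenzyme A synthesis, *Ppara* a nuclear receptor of fatty acid oxidation and *Cox7a1* a subunit of cytochrome c oxidase. *Ppara* averaged −0.08 in WT scWAT, 4.69 in *Lr11*-/- scWAT, 6.30 in WT BAT and 6.56 in *Lr11*-/- BAT. The genes most like *S100b* were *Ppara* (0.37), *Pank1* (0.52) and *Gpd2* (0.70), which encodes the mitochondrial glycerol 3-phosphate dehydrogenase. For *Ntf3* they were *Tcf15* (0.47), a transcription factor of the microvascular endothelium of fat and muscle, *Klb* (0.54), the co-receptor of FGF21, and *Lamc3* (0.60), a laminin chain. The span of *Ntf3* rested largely on its dim spot on WT scWAT replicate 2 (−6.52). Without that array its WT depot difference was 0.57. *Tcf15*, *Klb* and *Lamc3* also varied widely within WT scWAT (SD 2.71, 3.01 and 2.35). No other gene of the 8 spanned 2 log2 units between its group means. Among the 8 themselves, *Ntrk2* was nearest to *Npr1* (0.43) and *Npr2* to *Th* (0.44), against 0.71 for *Ntrk3* and *S100b*. These likenesses are descriptions over arrays that share groups, and genes that vary little score low with each other.

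Of the natriuretic peptide receptors, *Npr2* was the steadier. It was at 2.75, 2.20 and 2.77 in WT scWAT and at 3.04, 3.11 and 3.16 in *Lr11*-/- scWAT, with all knockout arrays above all WT ones. The difference was 0.53 (SE 0.20, 95% confidence interval 0.10 to 0.96, 1.44-fold), with an adjusted p of 0.12 in limma, and it was 0.34 without WT scWAT replicate 2. In BAT it was at 2.99, 3.01 and 2.90 in WT and at 3.05, 3.17 and 3.13 in *Lr11*-/-, again without overlap, and the difference was 0.15 (SE 0.20, 95% confidence interval −0.28 to 0.59, adjusted p = 0.99999 in limma). *Npr1* was at −2.59, −4.39 (dim) and −2.74 in WT scWAT and at −2.38, −2.66 and −3.33 in *Lr11*-/- scWAT, where the groups overlapped (difference 0.45, SE 0.47, adjusted p = 0.56 in limma). It was at −1.55, −1.76 and −2.61 in WT BAT and at −1.89, −1.84 and −1.56 in *Lr11*-/- BAT, a difference of 0.21 (SE 0.47). BAT of WT mice was above scWAT by 1.27 (SE 0.47, 95% confidence interval 0.23 to 2.31), which did not pass the threshold (adjusted p = 0.071 in limma). Under normexp background correction it was 0.76 and passed (adjusted p = 0.020).

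*Th* was well above background on all 12 arrays. It was at 0.22, 0.16 and 1.63 in WT scWAT, 0.86, 1.08 and 1.33 in *Lr11*-/- scWAT, 1.75, 1.41 and 0.99 in WT BAT and 2.14, 1.23 and 1.40 in *Lr11*-/- BAT. The WT scWAT arrays spanned the whole range of the knockout ones. The difference between the genotypes was 0.42 (SE 0.40, 95% confidence interval −0.47 to 1.32, adjusted p = 0.53 in limma) in scWAT and 0.21 (SE 0.40, 95% confidence interval −0.69 to 1.10) in BAT. Between the depots of WT mice it was 0.71 (SE 0.40, adjusted p = 0.21 in limma). Without WT scWAT replicate 3, the array of that group with the highest *Th*, the depot difference was 1.19 (adjusted p = 0.023 in limma). It was 0.46 without WT scWAT replicate 2 (adjusted p = 0.49) and 0.31 in the second array series.

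Of the 21 other genes of the noradrenergic terminal between 10 and 17 were well above background on each array. *Dbh*, which turns dopamine into noradrenaline, and *Slc6a2*, the noradrenaline transporter, were well above background on 1 and 2 of the 12 arrays, WT scWAT replicate 3 being one of them for both (−3.64 and −1.35). That array also had the highest *Th* of its group, and it was the WT scWAT array with the muscle markers at 7.99 and with the highest mean over the 21 Schwann cell markers (−0.65, against −1.64 and −2.42). Their part in the *Th*, *Dbh* and *Slc6a2* values was not tested. The vesicular monoamine transporter *Slc18a2* lay between −2.43 and −2.16 in WT scWAT and between −2.29 and −1.95 in *Lr11*-/- scWAT (difference 0.16, adjusted p = 0.60 in limma). Of the list 13 genes were tested, and 2 of them rose in *Lr11*-/- scWAT and 0 fell, where 3.40% of all probes were called higher and 1.87% lower. They were *Maob* (2.24, SE 0.54, adjusted p = 0.045), a mitochondrial monoamine oxidase found in many cells besides neurons, and *Spr* (0.91, SE 0.23, adjusted p = 0.047), an enzyme of tetrahydrobiopterin synthesis named here after its value was seen. *Ddc*, which makes dopamine from L-DOPA, differed by −1.64 between the genotypes in scWAT (adjusted p = 0.11 in limma). Between BAT and scWAT of WT mice it differed by −2.37 (SE 0.59, adjusted p = 0.017 in limma), with 0 of 3 WT BAT spots well above background. The gene was bright enough to be tested only through WT scWAT, where it was high, so neither p value is independent support.

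Counted over the 6 genes that could be tested in scWAT, 0 passed the threshold between the genotypes and 2 at an unadjusted p under 0.05. At the adjusted threshold 5.27% of all probes were called, and at the unadjusted one 27.6%. The groups did not overlap for 2 of the 6, *Bdnf* and *Npr2*, against 20.4% of all probes. In BAT 0 of 6 passed, 0 also at an unadjusted p under 0.05, against 0.0187% and 2.12% of all probes, and 1 of 6 had no overlap, against 12.0%. Between BAT and scWAT of WT mice 1 of 6 passed and 3 had an unadjusted p under 0.05, against 24.8% and 40.1% of all probes, and 2 had no overlap, against 40.2%. In *Lr11*-/- mice 0 of 6 passed, against 0.0405% of all probes, 0 had an unadjusted p under 0.05, as 2891 of the 32121 probes had, and 2 had no overlap, against 23.2%. Of the scWAT effect minus the BAT effect 0 of 6 passed, and 1, *Bdnf*, had an unadjusted p under 0.05 (−0.91, SE 0.39, adjusted p = 0.43 in limma), while 0% of all probes passed and 3537 of the 32121 had such an unadjusted p. The median of all probes was 0.04 in both genotype comparisons and 0.07 between the depots of WT mice.

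**Figure D4:**
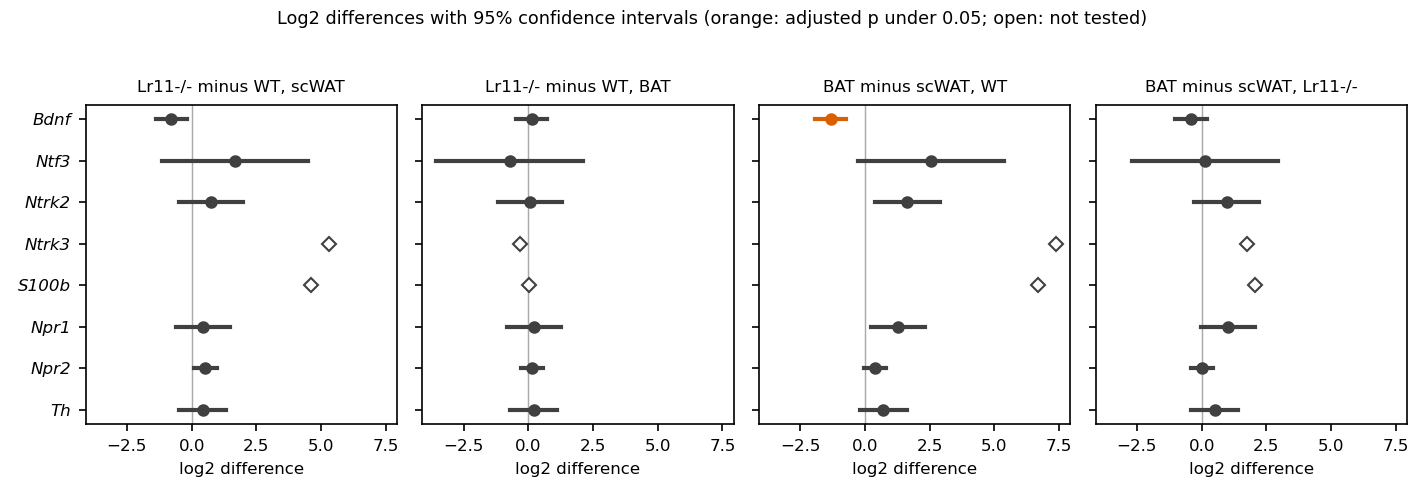
Log2 differences of the 8 genes (y axis) in 4 comparisons, with lines for the 95% confidence intervals of the limma fit. Filled points were tested, the orange one past an adjusted p of 0.05, and open diamonds are *Ntrk3* and *S100b*, which were not tested. *Bdnf* in the WT depot comparison (−1.32) is the orange point, and the intervals of all 6 tested genes include 0 between the genotypes in BAT.

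The wider neurotrophin pathway held 25 other genes on the arrays, of which 22 were tested. In *Lr11*-/- scWAT 2 rose and 0 fell, with a median of 0.11, where 3.40% of all probes were called higher and 1.87% lower. The risers were the adaptor genes *Sh2b2* (1.91, SE 0.39, adjusted p = 0.037 in limma) and *Sh2b1* (0.90, SE 0.22, adjusted p = 0.048 in limma), whose proteins bind Trk receptors and also the insulin receptor and JAK2. *Sh2b2* was at 2.18, 1.79 and 1.70 in WT and at 2.85, 4.26 and 4.31 in *Lr11*-/- scWAT, and at 4.07 to 4.97 in WT BAT. *Ngfr*, the p75 receptor shared by all neurotrophins, differed by −0.83 (adjusted p = 0.25 in limma), and *Ntf5*, another ligand of TrkB, by 0.53 (adjusted p = 0.78 in limma).

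Of the natriuretic peptide pathway 15 of 18 genes were tested, and 1 rose and 0 fell in *Lr11*-/- scWAT, with a median of −0.38. The shares of all probes called there were 3.40% higher and 1.87% lower. The riser was *Pde5a*, a phosphodiesterase that breaks down cGMP, at 1.12, 0.03 and 1.85 in WT and 2.38, 4.50 and 4.93 in *Lr11*-/- scWAT (2.94, SE 0.62, adjusted p = 0.039 in limma), which is 7.66-fold. It was also higher in BAT than in scWAT of WT mice (3.74, SE 0.62, adjusted p = 0.0045 in limma). The peptide genes *Nppa* and *Nppb* differed by −0.0025 and −0.12 in scWAT, and *Nppc* was dim on 11 of 12 arrays. *Npr3*, the clearance receptor that removes natriuretic peptides, ranged from −0.32 to 5.27 within WT scWAT alone, and its difference was 0.47 (SE 1.30, adjusted p = 0.84). *Pde3b*, which breaks down cAMP and is inhibited by cGMP, differed by 1.88 (adjusted p = 0.063) and *Prkg2*, a cGMP-dependent kinase, by −1.98 (adjusted p = 0.080).

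Among axon genes 14 of 20 were tested, and 0 rose and 1 fell in *Lr11*-/- scWAT, against 3.40% and 1.87% of all probes. The gene that fell was *Uchl1*, a ubiquitin hydrolase widely used to stain nerve fibres. It was at −2.68, −0.14 and 1.35 in WT and at −3.53, −4.97 and −4.03 in *Lr11*-/- scWAT, the last 2 dim (−3.69, SE 0.80, adjusted p = 0.040 in limma). With dim spots set to that limit it was at least 12.2-fold lower. It was lower in BAT than in scWAT of WT mice as well (−4.03, SE 0.80, adjusted p = 0.0078 in limma), with 1 of 3 WT BAT spots well above background. The gene was bright enough to be tested only through WT scWAT, where it was high, so neither p value is independent support. The median of the 14 genes was 0.08, and *Tubb3*, the neuronal tubulin, differed by −1.54 without passing.

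Growth and guidance cues made up 28 genes, of which 24 were tested. In *Lr11*-/- scWAT 0 rose and 1 fell, against 3.40% and 1.87% of all probes. The latter was *Plxna4*, a semaphorin co-receptor named after its value was seen (−1.95, SE 0.41, adjusted p = 0.039 in limma). The median was −0.68, and 14 of the 24 had an unadjusted p under 0.05, against 27.6% of all probes. The list includes *Slit2* and *Artn*, the gene of artemin, which were bright enough to be tested only through WT scWAT, where they were high. Its counts, here and between the depots, are therefore no independent support. *Nrg4*, a growth factor released by brown fat, was at 2.09, −1.99 and 1.99 in WT and at 3.18, 4.06 and 4.44 in *Lr11*-/- scWAT, a difference of 3.20. Like *Ntrk3* and *S100b*, it is among the top genes that the study drew from these arrays. Its values are therefore given without a test, although the counts of this list include it. *Clstn3*, whose adipocyte isoform aids the secretion of S100b, was at 3.66, 2.22 and 1.70 in WT and at 2.82, 5.77 and 5.92 in *Lr11*-/- scWAT (2.31, adjusted p = 0.088). The probe does not name the isoform. Between the depots of WT mice 6 of the 24 were higher in BAT and 9 lower. *Clstn3* was higher in BAT (3.33, adjusted p = 0.013 in limma), as was *Nrg4* (3.42, given without a test). The axon repellent *Slit2* was lower (−2.83, adjusted p = 0.040 in limma), with 1 of 3 WT BAT spots well above background. *Slit2* was bright enough to be tested only through WT scWAT, where it was high, so its p value is no independent support. In the other lists the counts in this comparison were 3 higher and 1 lower of 22 for neurotrophins, 1 and 0 of 15 for natriuretic peptides, 3 and 2 of 13 for the noradrenergic terminal, 1 and 2 of 14 for axons and 1 and 1 of 17 for Schwann cells, where 15.7% of all probes were called higher and 9.13% lower. The tested genes of these lists include *Ddc*, *Uchl1* and *Fabp7*, which were also tested only through WT scWAT. Of the 105 tested genes of these 6 lists 0 passed the threshold between the genotypes in BAT and 1 had an unadjusted p under 0.05, against 0.0187% and 2.12% of all probes. For the scWAT effect minus the BAT effect 0 of the 105 passed and 17 had an unadjusted p under 0.05, where 3537 of the 32121 probes had one.

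The calls between the genotypes in scWAT lay close to the threshold, and most ended when a single array was left out. Over all probes 1692 were called with 12 arrays, 222 once WT scWAT replicate 2 was dropped, 28 and 3 when replicate 2 or 3 of *Lr11*-/- scWAT was, and 145 to 175 when any one of the 6 BAT arrays was. Dropping replicate 1 of *Lr11*-/- scWAT raised the number to 6371, and dropping replicate 1 or 3 of WT scWAT raised it to 4409 or 4617. Each of the 9 omissions that lowered the number left 0 genes called in the neurotrophin, natriuretic peptide, noradrenergic, axon and Schwann cell lists. The thermogenic markers and the growth and guidance cues each had 1 gene called when WT scWAT replicate 2 was dropped and 0 under the other 8 omissions. With *Lr11*-/- scWAT replicate 1 dropped, the count of growth and guidance cues was 11 and that of thermogenic markers 9.

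**Figure D5:**
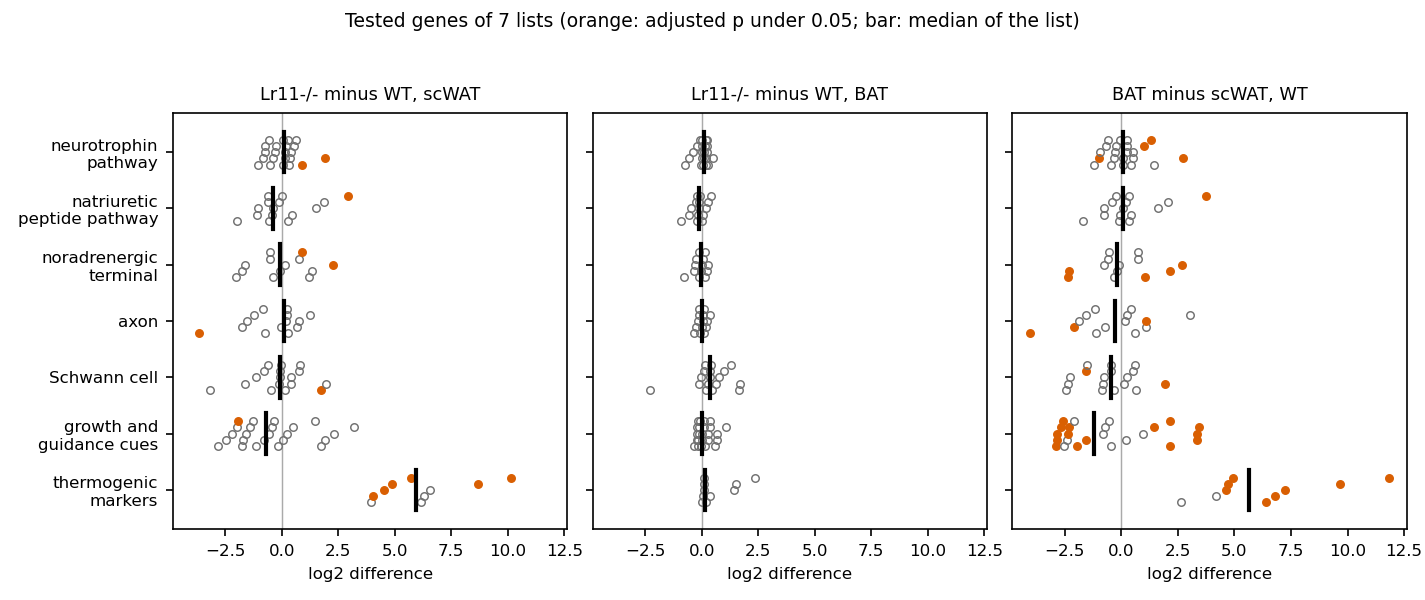
Log2 differences (x axis) of the tested genes of 7 lists (y axis) in 3 comparisons, 1 point per gene, orange past an adjusted p of 0.05 in limma, with a black bar at the median of each list. In scWAT the thermogenic markers, most of which are among the study's top genes for this difference, lie apart from the 6 nerve and peptide lists. The medians of those 6 lists are between −0.68 and 0.11 in scWAT, and in BAT no point is orange.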

How the data were processed

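RNA of scWAT and BAT was hybridised to one-colour Agilent arrays. The deposited values are spot intensity as Feature Extraction 10.10.1.1 wrote it, background-subtracted and detrended within the array, neither log2-transformed nor normalized between arrays, and a table of the whole series with the same values. The intensity was taken to log2 here, outlier spots were left out, spots of a probe were averaged and the 75th percentile of the array (374 to 632) was subtracted. Spots well above background numbered 32377 to 37002 per array, 0 were saturated, and the number of arrays limits the precision.

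Gene symbols came from RefSeq accessions (27235 of 28685 probes) in a table of GRCm38.p6, and the brightest tested probe stood for a gene. limma 3.58.1 (lmFit, eBayes) in R 4.3.3 fitted 4 group means over the 32121 probes well above background on all 3 arrays of a group, with 28 missing values left as missing. The steps were tested on simulated data. Figures used Python 3.11.15 and matplotlib 3.10.9. The genes and lists were chosen with earlier results of these data known. Genes named from the lists were the 4 with the largest scWAT difference and a fixed set, others being marked in the text. Alternatives covered scaling, background correction, filters, blocks, weights, array subsets, thresholds and each array left out in turn. Some genes of the lists count in the totals and are not reported here by name.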

Additional observations from a re-analysis of the deposited data

How the results depend on the processing

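*Bdnf* stayed lower in BAT than in scWAT of WT mice under all 28 alternatives that gave it a test (adjusted p = 0.0073 to 0.045 in limma). The number of genes past the threshold in that comparison, 1, was 2 with normexp on the median signals, with probes well above background on all 12 arrays, with the array series as a block and in the second series alone, and 3 at an adjusted p under 0.1. It was 1 to 4 when single arrays were left out, 4 without WT scWAT replicate 1 and 2 without WT scWAT replicate 3. Between BAT and scWAT of *Lr11*-/- mice it was 2 with array weights (*Ntrk2* and *Npr1*), against 0. The counts of 0 in scWAT, in BAT and in the difference of the genotype effects stayed 0 under all alternatives run.

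Some small differences changed sign, and the cause was not tested. In BAT between the genotypes *Ntrk2* was −0.021 with quantile normalization, *Bdnf* −0.13 in the second series, and *S100b* −0.087 with quantile normalization, −0.043 without scaling, −0.037 in the second series and −0.084 with array weights. *Npr2* between the depots of *Lr11*-/- mice was −0.088 with quantile normalization and −0.11 without scaling. When single arrays were left out, the scWAT differences ran from −0.0017 to 1.45 for *Ntrk2*, −0.29 to 3.01 for *Ntf3* and −0.12 to 0.78 for *Npr1*. Those in BAT ran from −0.11 to 0.19 for *Ntrk2*, −0.50 to 0.016 for *Ntrk3*, −0.070 to 0.23 for *Bdnf*, −0.14 to 0.20 for *S100b*, −0.11 to 0.42 for *Npr1* and −0.066 to 0.39 for *Th*. *Npr2* between the depots of *Lr11*-/- mice ran from −0.012 to 0.053. The difference of the genotype effects ran from −0.076 to 1.37 for *Ntrk2*, −0.33 to 0.56 for *Npr1* and −0.042 to 0.69 for *Th*. All lowest scWAT values came without WT scWAT replicate 2.

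Without scaling the median of all probes was −0.20 in scWAT between the genotypes and −0.25 between the depots of WT mice. With array medians it was 0.17 and 0.20, against 0.04 and 0.07. No paired analysis was possible because the labels carry no replicate numbers, and the array series and the slide served as blocks instead. Of the 28 alternatives run for the lists in scWAT, 11 left 0 genes called for neurotrophins (2 as reported) and for natriuretic peptides (1), 14 for the noradrenergic terminal (2) and axons (1), 17 for Schwann cells (1) and 10 for growth and guidance cues (1) and thermogenic markers (6). In the second series the counts were 4, 5, 5, 5, 2, 11 and 8 in that order, and with array weights growth and guidance cues reached 12 and thermogenic markers 10. Over all probes 151 were called with no filter on dim probes and 0 with only the arrays of the 2 groups compared.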
